A study of Mus musculus with 31 samples.

Results

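The Bcl2 family survival and death genes are described here by 10 genes, Bcl2, Bcl2l1, Mcl1, Bax, Bak1, Bcl2l11, Bid, Bad, Bbc3 and Pmaip1. They were taken by symbol from count tables of 31053 genes, and all 10 were present in each of the 3 tables. The study measured messenger RNA in mouse Th17 cells, the CD4 T helper cells that make interleukin-17, and asked how steroid hormone made and sensed by these cells bears on their state. Each library came from 2000 sorted cells.

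Cyp11a1 cKO (6 libraries) and Cyp11a1 WT (4 libraries) differed in Cyp11a1, the enzyme that begins steroid synthesis. GR cKO (4 libraries) and GR WT (5 libraries) differed in the glucocorticoid receptor, the product of Nr3c1. All these donors were C57/B6 mice carrying 2D2, a transgenic receptor for a myelin peptide. Their naive T cells were cultured towards a homeostatic Th17 state and injected into Rag1 KO mice, which lack T and B cells of their own. The recipients developed experimental autoimmune encephalomyelitis (EAE), and at its peak 2D2+ cells were recovered from brain and spinal cord, here called the CNS, by flow sorting. In a separate culture experiment, inflammatory Th17 cells made from WT (C57/B6) spleen and lymph node cells were kept for 2 days with TGF-β1 and dexamethasone together (TGF-β1 + Dex), with dexamethasone alone (Dex), with TGF-β1 alone or with neither (Ctrl), with 3 libraries per group. Live cells were sorted from these cultures, so cells that had already died were not measured. The Cre driver and the ages of the mice are not given in the sources used here. Nor do the labels say whether the libraries of a group came from separate animals or cultures, and p-values measure only the spread between libraries.

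The family decides whether mitochondria release the factors that start apoptosis. Bcl2, Bcl-xL (the long product of Bcl2l1) and Mcl1 hold the pore-forming proteins Bax and Bak (from Bak1) in check, and BH3-only proteins such as Bim (Bcl2l11), Bid, Bad, Puma (Bbc3) and Noxa (Pmaip1) relieve that restraint. Dexamethasone is a synthetic glucocorticoid; glucocorticoids kill thymocytes and many lymphocytes through this route, and Bim is a known mediator in mouse lymphocytes.

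Total counts per library were 4322688 to 5118543 for the Cyp11a1 genotypes, 3552871 to 5623305 for the GR genotypes and 2769203 to 4291149 in culture. Levels are given as CPM, counts of the tested genes scaled to a common library size, and 3 counts, taken as the smallest detectable level, equalled between 0.495 and 1.13 CPM. Sums of 8 T cell marker genes lay between 3620 and 8790 CPM in the CNS libraries and between 1970 and 2150 CPM in culture. Trac was the largest part in the CNS, at 4950 to 5980 CPM for Cyp11a1 and 1990 to 3120 CPM for GR, against 207 to 253 CPM in culture. Cd2 went the other way, at 271 to 354, 164 to 221 and 383 to 530 CPM in the same order. Il17a, the gene of the cytokine that names Th17 cells, was detected in every group. Myeloid and microglial markers (18 genes) summed to 11800 to 24400 CPM in GR cKO and 5030 to 23300 CPM in GR WT, more than the T cell markers in all 9 of these libraries. Among them, Apoe alone ran from 494 to 12300 CPM over the 9 libraries. None of the 18 was at 0 in any CNS library, and member levels there can include RNA of such cells. The same sum was 746 to 1460 CPM in Cyp11a1 cKO and 545 to 794 CPM in Cyp11a1 WT, and 93.7 to 141 CPM in culture, where Csf1r, Adgre1, Itgam and C1qa were at 0 in every library. In bulk libraries of this kind, fewer cells of a type and less RNA per cell cannot be told apart. Nr3c1 averaged 8.43 ± 1.42 CPM in GR cKO (SD, n = 4) and 14.9 ± 2.38 CPM in GR WT (SD, n = 5), a log2 fold change of -0.83 ± 0.175 (SE) whose adjusted p was 0.58 in edgeR. Cyp11a1 had 4 counts (0.98 CPM) in Cyp11a1 cKO library 2 and 0 in the other Cyp11a1 cKO libraries and in all Cyp11a1 WT libraries, so its level could not check those labels. In culture, Tsc22d3 (GILZ), a direct glucocorticoid target, averaged 115 ± 5.16 CPM in Dex and 47.3 ± 2.5 CPM in Ctrl (SD, n = 3 each; log2 fold change 1.29 ± 0.117, adjusted p = 9.52e-05 in edgeR). Fkbp5, a further glucocorticoid target chosen as a check, did not pass for Dex against Ctrl, on 7 to 36 counts per culture library. Smad7, a TGF-β target, did not pass for TGF-β1 against Ctrl (0.41 ± 0.362, adjusted p = 0.665 in edgeR).

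Bcl2l1 was the one member that passed the test in any comparison, so its promoter is shown first. A promoter here is the window of 250 bases before and 50 after a RefSeq start (GRCm38.p6), and 9 of the 10 members matched, with 15 windows. Of the 3 Bcl2l1 windows, the one at chr2:152828440-152828739 (minus strand) held CAGAC, the core Smad element, at 153 and 59 bases before the start, printed in capitals. The other Bcl2l1 windows held no match to any motif searched. For Bcl2l11, the window at chr2:128125788-128126087 (plus strand) is shown because Bim is a known target of FOXO factors; its FOXO letters GTAAACA, in capitals, lie 227 bases before the start.
Bcl2l1: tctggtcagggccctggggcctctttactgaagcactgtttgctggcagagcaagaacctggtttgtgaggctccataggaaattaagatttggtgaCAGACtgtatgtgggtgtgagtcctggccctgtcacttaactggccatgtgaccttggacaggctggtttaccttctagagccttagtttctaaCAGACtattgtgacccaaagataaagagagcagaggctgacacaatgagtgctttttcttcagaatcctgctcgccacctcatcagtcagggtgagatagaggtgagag
Bcl2l11: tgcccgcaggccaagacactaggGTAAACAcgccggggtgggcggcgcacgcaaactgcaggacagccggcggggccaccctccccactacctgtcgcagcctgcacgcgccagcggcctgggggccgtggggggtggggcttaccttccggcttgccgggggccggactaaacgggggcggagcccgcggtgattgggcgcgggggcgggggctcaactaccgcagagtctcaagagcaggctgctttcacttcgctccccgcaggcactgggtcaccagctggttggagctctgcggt
Motifs were searched on both strands. CAGAC was found in 49.6% and GTAAACA in 3.65% of all 32851 promoters of this length. Neither was particular to the windows shown. The Smad letters were also in windows of Bbc3, Bak1 and Bad and in another Bcl2l11 window, and the FOXO letters in a Bbc3 window. The glucocorticoid half-site AGAACA, found in 19.0% of all promoters, was in none of the 15 member windows. Nor were the full element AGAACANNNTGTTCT, found in 0.00913% of promoters and overlapping the half-site, or the STAT letters TTCNNNGAA, found in 8.3%. These matches describe letters in short windows and say nothing of binding.

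Per kilobase of exon, the pore-former Bax had the highest mean level of the 10 genes in all 8 groups. In Ctrl it stood at 197 ± 26.3 CPM per kilobase (SD, n = 3). Bcl2l1 came next in Ctrl at 32.7 ± 2.27 and then Bcl2 at 12.0 ± 0.304 CPM per kilobase (SD, n = 3 each), and the ranges of these 3 genes did not overlap. Bcl2l11 was last in Ctrl at 0.292 CPM per kilobase. In Cyp11a1 WT cells of the CNS, Bax (89.3 ± 8.93) and Bcl2l1 (12.2 ± 0.461 CPM per kilobase, SD, n = 4 each) again led. Pmaip1 (6.4 ± 1.61), Bad (5.41 ± 1.75) and Bcl2 (4.35 ± 1.0 CPM per kilobase) followed with overlapping ranges. In GR WT libraries Bcl2 had a mean of 2.45 ± 0.417 CPM per kilobase (SD, n = 5), below those of Bad, Pmaip1, Mcl1, Bid and Bak1. Myeloid markers exceeded T cell markers in these libraries, so this order need not be that of the Th17 cells. Bax exons share 22.1% of their length with Gm45808 on the same strand, and Bad, Bak1 and Bcl2 share 21.6%, 10.7% and 6.09% with Gpr137, Ggnbp1 and D630008O14Rik on the opposite strand. The libraries carry no strand, so reads over the opposite-strand genes cannot be told apart. For Bax and Gm45808, strand would not separate the shared reads either. A gene count also cannot separate the long, protective from the short, death-promoting product of Bcl2l1, or the isoforms of Bim.

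In culture, Bcl2l1 was lower with dexamethasone at 0.732 of its Ctrl level, and no other member passed the test. Bcl2l1 stood at 86.4, 94.4 and 98.2 CPM in Dex, against 124, 120 and 137 CPM in Ctrl. All 3 Dex libraries lay below all 3 Ctrl libraries. The difference passed (log2 fold change -0.45 ± 0.087, adjusted p = 0.0199, edgeR quasi-likelihood test with Benjamini-Hochberg adjustment over all genes). This made 1 of 9 tested members, where 1.83% of all 10332 tested genes passed; the median log2 fold change was 0.016 over the members and 0.003 over all genes. The adjusted p rose above 0.05 without Ctrl library 1 (0.0514), Ctrl library 3 (0.0943), Dex library 1 (0.0912) or Dex library 2 (0.0616), while the log2 fold change stayed between -0.49 and -0.39.

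**Figure D1:**
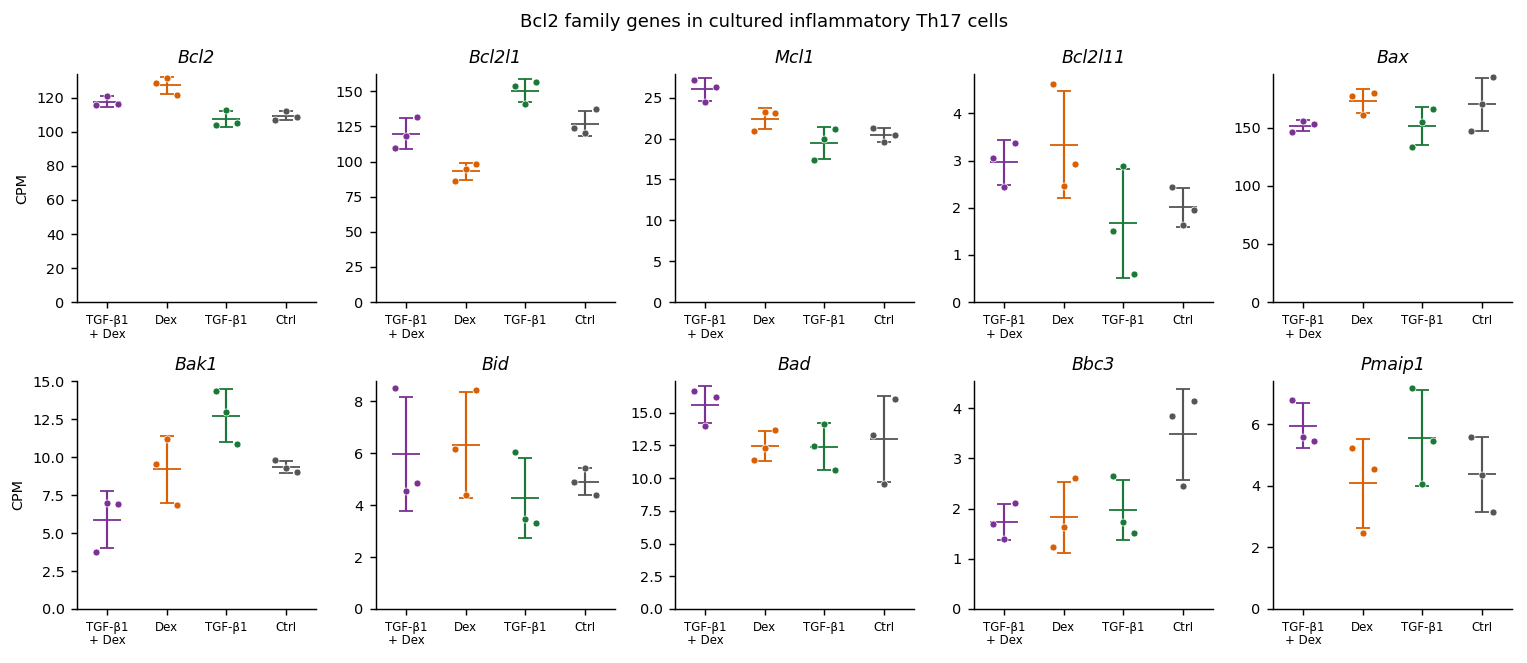
CPM of each member in the 12 culture libraries, by treatment; points are libraries, and bars give the mean and SD of 3 libraries. Bcl2l1 was lowest in Dex (86.4 to 98.2 CPM) and highest in TGF-β1 (141 to 156 CPM), and axes start at 0 with a scale of their own for each gene.

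The other survival genes had higher means in Dex without passing. Bcl2 was at 129, 132 and 122 CPM in Dex and 107, 113 and 109 CPM in Ctrl. The groups did not overlap, and the log2 fold change was 0.22 ± 0.063 (95% interval 0.08 to 0.36, adjusted p = 0.117 in edgeR). Within each library, Bcl2l1 had 0.67 to 0.805 counts per Bcl2 count in Dex and 1.07 to 1.26 in Ctrl. Mcl1, a short-lived protector, had 21.0, 23.3 and 23.1 CPM in Dex and 21.3, 19.6 and 20.4 CPM in Ctrl, and its groups overlapped (0.14 ± 0.118, interval -0.12 to 0.39).

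Among the death genes, Bcl2l11 was at 4.63, 2.46 and 2.93 CPM in Dex against 2.45, 1.64 and 1.95 CPM in Ctrl. The groups were separated by the narrow gap between 2.46 and 2.45 CPM. These levels rest on 9 to 15 counts per Dex library and 6 to 8 per Ctrl library, and the log2 fold change of 0.73 ± 0.46 had an interval of -0.26 to 1.73 (adjusted p = 0.546 in edgeR). With Bcl2 and Bcl2l1, that makes 3 of 9 tested members whose Dex and Ctrl libraries did not overlap, against 19.3% of all tested genes. Bax (0.02 ± 0.099) and Bak1 (-0.01 ± 0.236) had log2 fold changes near 0, with intervals of -0.2 to 0.23 and -0.52 to 0.5. Bid (0.36 ± 0.323), Bad (-0.06 ± 0.196) and Pmaip1 (-0.08 ± 0.328) did not pass either, and their groups overlapped. Bbc3 was left out of the test by the low-count filter, with 1.23, 1.64 and 2.6 CPM in Dex and 3.85, 2.45 and 4.14 CPM in Ctrl; these groups overlapped.

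TGF-β1 alone called no member. Bcl2l1 read 154, 141 and 156 CPM in TGF-β1 against 124, 120 and 137 CPM in Ctrl. Its groups did not overlap, and the log2 fold change was 0.24 ± 0.085 (interval 0.06 to 0.43, adjusted p = 0.186 in edgeR). Bak1 read 14.4, 13.0 and 10.9 CPM in TGF-β1 and 9.8, 9.27 and 9.01 CPM in Ctrl, without overlap (0.44 ± 0.229, interval -0.05 to 0.94, adjusted p = 0.393 in edgeR). These were 2 of 9 members without overlap, against 21.0% of all tested genes. In edgeR 0 of 9 members passed, where 3.29% of all genes did; 1 member had an unadjusted p under 0.05, against 1547 of 10332 genes, and DESeq2 called 0. The median log2 fold change of the members was -0.06, against 0 for all genes.

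With both agents, Bcl2l1 lay above its level under Dex. It read 110, 118 and 132 CPM in TGF-β1 + Dex against 86.4, 94.4 and 98.2 CPM in Dex. No library overlapped, and the fold of 1.29 (log2 fold change 0.37 ± 0.087) passed at an adjusted p of 0.0457 in edgeR. It was 1 of 9 tested members, where 2.62% of all genes passed. This call sat near the threshold and was lost, at adjusted p values between 0.0525 and 0.187, without Ctrl library 2, any 1 Dex library, TGF-β1 library 1 or 3, or TGF-β1 + Dex library 2 or 3. It was lost too without the low-count filter (0.0501) and when the groups compared were fitted alone (0.111). Its log2 fold change under leaving out a library stayed between 0.29 and 0.43.

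Against TGF-β1 alone, Bcl2l1 was lower with both agents (110, 118 and 132 CPM in TGF-β1 + Dex and 154, 141 and 156 CPM in TGF-β1). The log2 fold change of -0.32 ± 0.086 did not pass (interval -0.51 to -0.14, adjusted p = 0.151 in edgeR). The interaction term, which asks whether the Dex difference depended on TGF-β1, was 0.13 ± 0.122 for Bcl2l1 (interval -0.14 to 0.39, adjusted p = 0.994 in edgeR). Against Ctrl, the 2 agents together gave -0.08 ± 0.086 (interval -0.27 to 0.1, adjusted p = 0.687 in edgeR), and those libraries overlapped. These comparisons share libraries and are not independent of each other.

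Bak1 had its lowest and Mcl1 its highest mean with both agents. Bak1 read 3.74, 7.0 and 6.95 CPM in TGF-β1 + Dex against 14.4, 13.0 and 10.9 CPM in TGF-β1. The levels with both agents rest on 11 to 33 counts per library, the lowest on 11. The groups did not overlap, and the log2 fold change was -1.08 ± 0.243 (interval -1.61 to -0.55), with an adjusted p of 0.086 in edgeR. Its interaction term was -1.07 ± 0.339 (adjusted p = 0.746 in edgeR), in a term that called 0 of 10332 genes in edgeR, with 552 at an unadjusted p under 0.05, and 6 in DESeq2.

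Mcl1 was at 27.2, 24.5 and 26.3 CPM in TGF-β1 + Dex, 21.0, 23.3 and 23.1 CPM in Dex, 17.4, 19.9 and 21.2 CPM in TGF-β1 and 21.3, 19.6 and 20.4 CPM in Ctrl. Each library with both agents lay above every other library. The log2 fold changes were 0.41 ± 0.118 against TGF-β1 (adjusted p = 0.213 in edgeR), 0.21 ± 0.115 against Dex (0.509) and 0.35 ± 0.116 against Ctrl (0.105), so none passed.

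Groups without overlap were counted for the remaining pairs as well. Between TGF-β1 + Dex and Ctrl they were 3 of 9 tested members (Bcl2 and Mcl1 higher, Bak1 lower), against 23.6% of all tested genes. Between TGF-β1 + Dex and TGF-β1 they were 4 of 9 (Bcl2 and Mcl1 higher, Bcl2l1 and Bak1 lower), against 15.2%. Between TGF-β1 + Dex and Dex they were 6 of 9 (Bcl2l1, Mcl1, Bad and Pmaip1 higher, Bcl2 and Bax lower), against 18.4%. No member passed against Ctrl, where edgeR called 6.25% of genes, or against TGF-β1, where it called 0.532%; 2 and 3 members had an unadjusted p under 0.05, against 18.8% and 9.85% of all genes, and DESeq2 called 0 in both. The median log2 fold changes of the members were 0.26, 0.13 and -0.09 for both agents against Ctrl, TGF-β1 and Dex, against 0.001, -0.004 and -0.005 over all genes.

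Bad averaged 15.6 ± 1.43 CPM in TGF-β1 + Dex and 12.5 ± 1.13 CPM in Dex (SD, n = 3 each; 0.33 ± 0.193, adjusted p = 0.538 in edgeR). Pmaip1 had 5.96 ± 0.734 CPM in TGF-β1 + Dex and 4.09 ± 1.45 CPM in Dex (SD, n = 3 each; 0.55 ± 0.316, adjusted p = 0.531 in edgeR). Bbc3, not tested in culture, lay between 1.4 and 2.11 CPM in TGF-β1 + Dex and between 2.45 and 4.14 CPM in Ctrl, on 4 to 17 counts per library.

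**Figure D2:**
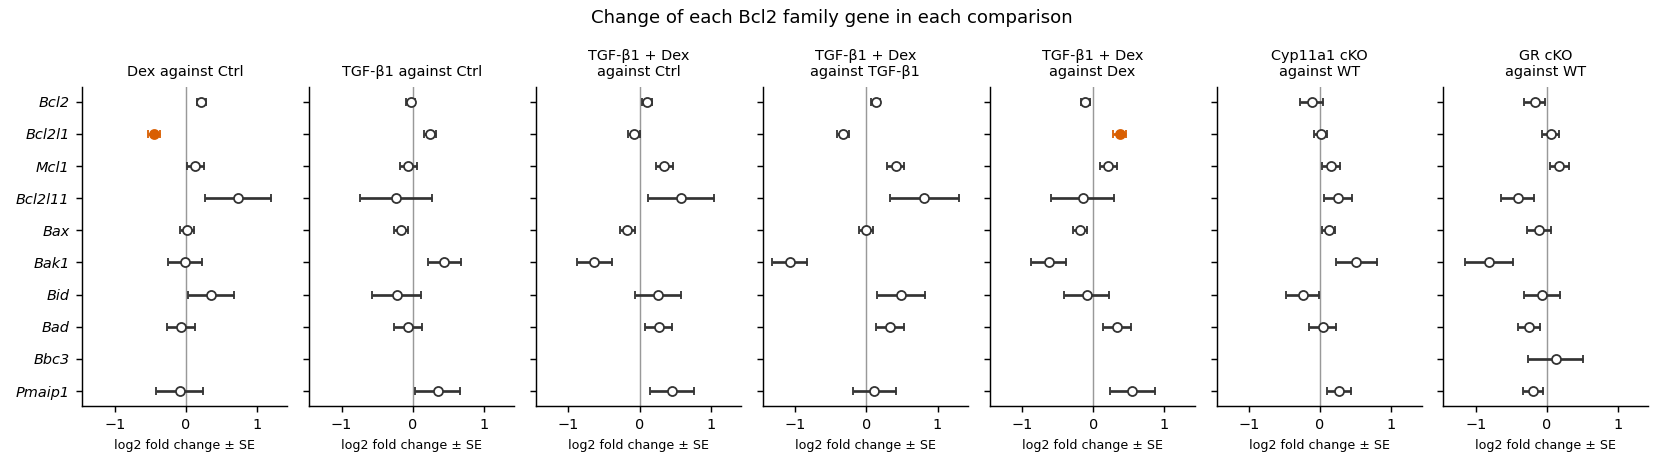
Log2 fold change ± SE of each member in the 7 pairwise comparisons, fitted by edgeR; filled orange points passed an adjusted p of 0.05, and Bbc3 has a point only where it was tested. Bcl2l1 alone passed, at -0.45 for Dex against Ctrl and 0.37 for TGF-β1 + Dex against Dex.

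The genes whose pattern over the 12 culture libraries was most like that of Bcl2l1 were Cd5, Lat and Avpi1 (Pearson r of log2 CPM 0.957, 0.955 and 0.953, of 5049 genes compared). These r values share the libraries and their treatments and are given as a description. Lat, a signalling adaptor of the T cell receptor, averaged 204 CPM in TGF-β1 + Dex, 153 in Dex, 273 in TGF-β1 and 211 in Ctrl. Cd5, a surface regulator of that receptor, averaged 240, 201, 291 and 265 CPM in the same order of groups.

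Downstream of the family, Casp6, an effector caspase gene, was lower than in Ctrl under each treatment. It passed only between groups with and without TGF-β1, and not in Dex against Ctrl. It was at 42.2, 48.6 and 52.2 CPM in TGF-β1 + Dex, 78.1, 85.4 and 73.8 CPM in Dex, 51.0, 60.4 and 76.6 CPM in TGF-β1 and 113, 101 and 94.7 CPM in Ctrl. No treated library reached the Ctrl range. It fell in TGF-β1 (-0.71 ± 0.134, adjusted p = 0.0103 in edgeR) and in TGF-β1 + Dex (-1.1 ± 0.137, 0.000305), each against Ctrl, and in TGF-β1 + Dex against Dex (-0.73 ± 0.138, 0.0135). The last call was lost without Dex library 2 (0.0702) or TGF-β1 + Dex library 1 (0.0678). Casp9, the initiator on the apoptosome, was higher with both agents than in Ctrl (0.96 ± 0.255, adjusted p = 0.0416 in edgeR) on 11 to 37 counts per library. That call was lost in DESeq2 (0.245), in 3 other settings and in 10 of 12 fits that left out a library, holding only without Dex library 3 or TGF-β1 + Dex library 2.

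In the list of 15 apoptosome and caspase genes, all tested, 0 rose and 1 fell in TGF-β1, and 1 rose and 1 fell in TGF-β1 + Dex, each against Ctrl. Over all genes 3.29% passed in TGF-β1 and 6.25% in TGF-β1 + Dex. In Dex 0 passed in edgeR or DESeq2, and 6 had an unadjusted p under 0.05, as did 13.2% of all genes. The median log2 fold changes in Dex, TGF-β1 and TGF-β1 + Dex were -0.242, -0.178 and -0.226, against 0.003, 0 and 0.001 over all genes. None of the 10 tested of 15 further Bcl2 family genes, among them Bcl2a1b, Bcl2a1d and Bik, passed in any culture comparison in edgeR or DESeq2. Their unadjusted p was under 0.05 for 1 to 3 genes per pairwise comparison, against 9.85% to 18.8% of all genes. Bcl2a1a and Bmf were below the low-count filter. Bcl2a1a, Bcl2a1b and Bcl2a1d are near-identical copies, and their reads may be split among them.

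**Figure D3:**
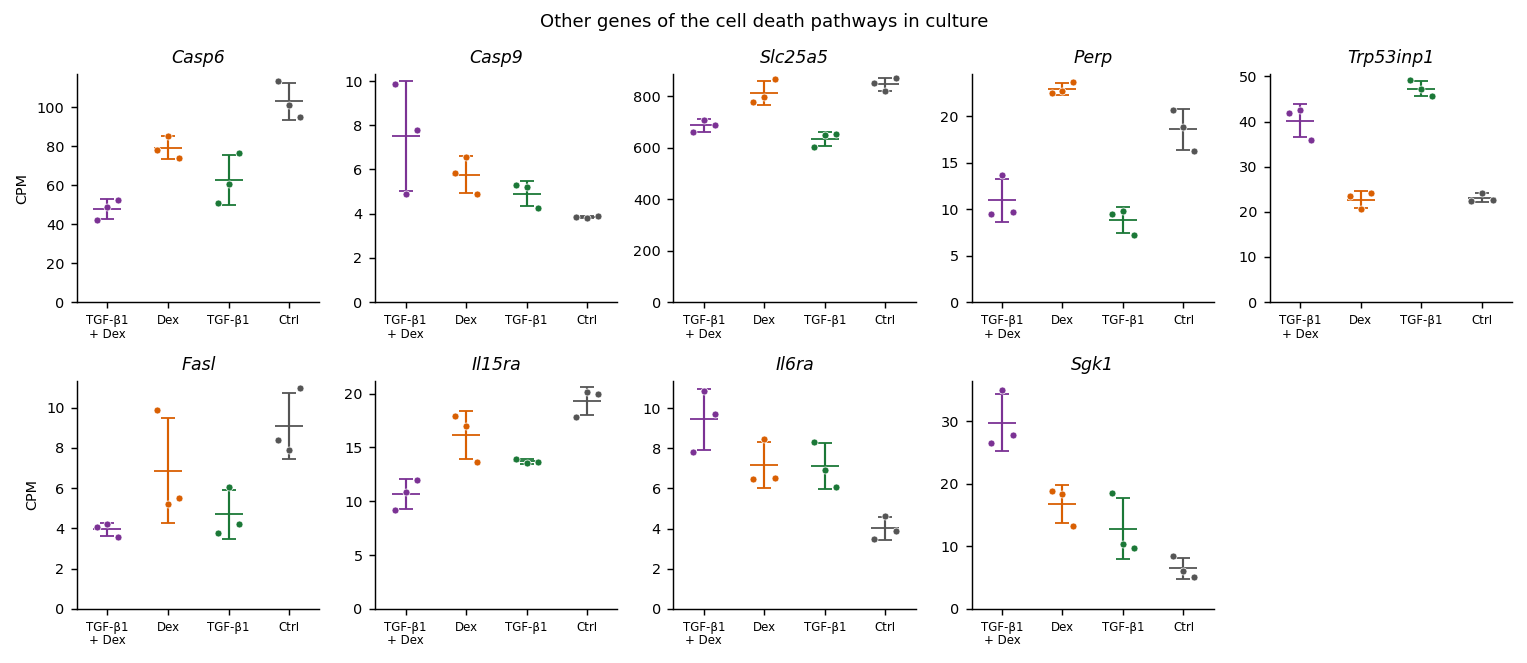
CPM of the 9 cell death pathway genes, apart from Tsc22d3 and outside the 10 members, that passed an adjusted p of 0.05 in a culture comparison, by treatment; points are libraries, and bars give the mean and SD of 3 libraries. Casp6 fell to 42.2 to 52.2 CPM with both agents, against 94.7 to 113 CPM in Ctrl, and each gene has its own scale starting at 0.

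Of 10 tested of 11 genes in the p53 list, 1 rose and 1 fell in TGF-β1, and the same counts were found in TGF-β1 + Dex, each against Ctrl. These stand beside 3.29% and 6.25% of all genes. In Dex 0 passed in edgeR and 2 had an unadjusted p under 0.05 (13.2% of all genes), while DESeq2 called 1, the cell cycle inhibitor Cdkn1a, which was lower. Trp53inp1, a p53-induced gene that promotes cell death, was at 41.8, 42.7 and 36.0 CPM in TGF-β1 + Dex, 23.5, 20.5 and 24.1 CPM in Dex, 49.1, 47.1 and 45.7 CPM in TGF-β1 and 22.4, 24.3 and 22.6 CPM in Ctrl. All libraries with TGF-β1 lay above all libraries without it. The log2 fold change was 1.03 ± 0.107 in TGF-β1 and 0.79 ± 0.108 in TGF-β1 + Dex against Ctrl (adjusted p = 0.000133 and 0.000643 in edgeR), and 0.82 ± 0.109 in TGF-β1 + Dex against Dex (0.00124). Perp, a p53 effector in the membrane, had 10.9 ± 2.33 CPM in TGF-β1 + Dex, 23.0 ± 0.651 in Dex, 8.85 ± 1.38 in TGF-β1 and 18.6 ± 2.18 in Ctrl (SD, n = 3 each). It fell in TGF-β1 against Ctrl (-1.06 ± 0.18, adjusted p = 0.00514 in edgeR) and in TGF-β1 + Dex against Dex (-1.08 ± 0.171, 0.00361). In TGF-β1 + Dex against Ctrl it fell by 0.769 on the log2 scale (adjusted p = 0.0177 in edgeR), a call lost in DESeq2 (0.0659), with the groups fitted alone (0.0607) and without Ctrl library 1 (0.0758), Ctrl library 2 (0.0618), or TGF-β1 + Dex library 1 (0.0788) or 3 (0.0898). The p53 gene itself, Trp53, did not pass in Dex (0.07 ± 0.101) or in TGF-β1 + Dex (-0.04 ± 0.101) against Ctrl.

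Among 14 regulators of BH3-only genes and Mcl1 turnover, 2 rose and 0 fell in Dex, 0 passed in TGF-β1 (1 at an unadjusted p under 0.05, and 0 in DESeq2), and 2 rose and 0 fell in TGF-β1 + Dex, each against Ctrl. Over all genes, 1.83% passed in Dex, 3.29% in TGF-β1 (1547 of 10332 at an unadjusted p under 0.05) and 6.25% in TGF-β1 + Dex. The genes were Tsc22d3 and Sgk1, both known glucocorticoid-induced genes. Tsc22d3 is also the dexamethasone check given above, so its rise was foreseen and adds no separate result to these counts. Sgk1, a kinase that restrains FOXO factors, averaged 29.8 ± 4.56 CPM in TGF-β1 + Dex, 16.8 ± 3.04 in Dex, 12.9 ± 4.9 in TGF-β1 and 6.5 ± 1.7 in Ctrl (SD, n = 3 each). It rose in Dex (1.4 ± 0.274, adjusted p = 0.0214 in edgeR) and in TGF-β1 + Dex (2.21 ± 0.261, 2e-04) against Ctrl, and in TGF-β1 + Dex against TGF-β1 (1.23 ± 0.242, 0.0449). The first of these was lost without Ctrl library 2 (0.0787), Ctrl library 3 (0.106), Dex library 1 (0.0834) or Dex library 2 (0.0832). The call against TGF-β1 was lost in 10 of 12 fits that left out a library (adjusted p up to 0.19), holding only without Ctrl library 1 or TGF-β1 library 1, and with the groups fitted alone (0.108). Foxo1 did not pass in Dex (0.09 ± 0.192) or in TGF-β1 + Dex (0.18 ± 0.189) against Ctrl.

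In the lists of mitochondrial partners, death receptor genes and survival cytokine receptors, 0 genes passed in Dex against Ctrl in edgeR or DESeq2, and 0, 1 and 4 had an unadjusted p under 0.05, against 13.2% of all genes. Slc25a5, an adenine nucleotide carrier of the inner mitochondrial membrane, fell in TGF-β1 (-0.42 ± 0.055, adjusted p = 0.000763 in edgeR) and in TGF-β1 + Dex (-0.3 ± 0.055, 0.00448) against Ctrl. It was the one of 9 mitochondrial partners of Bax and Bak to pass. Over all genes, 3.29% passed in TGF-β1 and 6.25% in TGF-β1 + Dex against Ctrl, and 2.62% in TGF-β1 + Dex against Dex. Against Dex, the fall in TGF-β1 + Dex (-0.25 ± 0.055, 0.0323) was lost without the low-count filter (0.0609), with the groups fitted alone (0.0945) and in 9 of 12 fits that left out a library, holding only without Ctrl, Dex or TGF-β1 library 1. Fasl, the ligand of the death receptor Fas, was the one of 9 tested death receptor genes to pass, with 3.95 ± 0.328 CPM in TGF-β1 + Dex and 9.09 ± 1.64 CPM in Ctrl (SD, n = 3 each; -1.22 ± 0.283, adjusted p = 0.0217 in edgeR). In that comparison 6.25% of all genes passed. The Fasl call was lost in DESeq2 (0.0791) and without Ctrl library 3 (0.102) or any 1 TGF-β1 + Dex library (0.0545 to 0.0941). Of 7 survival cytokine receptors, Il6ra rose (1.22 ± 0.218, 0.00418) and Il15ra fell (-0.84 ± 0.151, 0.00421) in TGF-β1 + Dex against Ctrl in edgeR. The share over all genes there was again 6.25%. Both calls held without each library.

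In Th17 cells sorted from the CNS, no member passed the test for loss of Cyp11a1. Of 9 tested members, 0 passed in edgeR, 0 had an unadjusted p under 0.05 and 0 passed in DESeq2. Over all 10125 genes, edgeR called 0.178% and 8.0% had an unadjusted p under 0.05. The groups of all 9 overlapped, against 1.97% of genes whose groups did not. The median log2 fold change was 0.12 over the members, 7 of them positive, and 0.003 over all genes. The same libraries differed in myeloid markers, of which 16 of 17 tested had positive log2 fold changes (median 0.72), and C1qa and C1qb passed. Markers of NK and CD8 T cells (6 genes) summed to 146 to 412 CPM in Cyp11a1 cKO and 56.3 to 260 CPM in Cyp11a1 WT. Gzma, a granzyme gene, made up most of this sum, with 238 ± 104 CPM in cKO (SD, n = 6) and 94.4 ± 95.6 CPM in WT (SD, n = 4), and did not pass. Of the 3 tested, it alone had a positive log2 fold change, and Cd8b1 averaged 18.4 CPM in cKO and 19.3 CPM in WT. The part of these cells in the member values was not tested.

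For the survival genes, Bcl2l1 had a lowest, median and highest level of 43.5, 47.4 and 51.8 CPM in Cyp11a1 cKO and read 46.1, 48.2, 49.4 and 45.6 CPM in Cyp11a1 WT. The WT libraries lay inside the cKO range, and the interval of the log2 fold change (0.01 ± 0.086) ran from -0.18 to 0.19. Bcl2 had 30.3, 35.3 and 49.0 CPM as lowest, median and highest in cKO and 31.1, 33.1, 44.9 and 50.1 CPM in WT (-0.12 ± 0.161, interval -0.46 to 0.23). Mcl1 had 12.0, 12.6 and 14.5 CPM in cKO and 13.1, 11.4, 10.4 and 11.4 CPM in WT (0.16 ± 0.124, interval -0.11 to 0.42).

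Of the pore-formers, Bax ran between 77.9 and 94.2 CPM in cKO and between 71.1 and 88.7 CPM in WT (0.12 ± 0.088, interval -0.07 to 0.31). Bak1 had a lowest, median and highest level of 4.95, 6.77 and 9.89 CPM in cKO and read 2.12, 6.0, 5.22 and 6.89 CPM in WT. Its log2 fold change, 0.51 ± 0.289, was the largest of the members, with an interval of -0.12 to 1.13 and an adjusted p of 0.732 in edgeR.

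Among BH3-only genes, Bcl2l11 had 8.9, 15.2 and 21.1 CPM as lowest, median and highest in cKO and 12.3, 10.6, 12.4 and 15.9 CPM in WT (0.25 ± 0.199, interval -0.18 to 0.68). The cKO libraries reached both below and above the WT range. Pmaip1 had 16.8, 20.6 and 24.5 CPM in cKO and 19.7, 15.9, 12.2 and 22.3 CPM in WT (0.26 ± 0.17, interval -0.1 to 0.63). Bid (-0.25 ± 0.233) and Bad (0.04 ± 0.185) did not pass, and Bbc3, not tested here, lay between 0.593 and 2.69 CPM in cKO and between 0.387 and 4.77 CPM in WT.

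**Figure D4:**
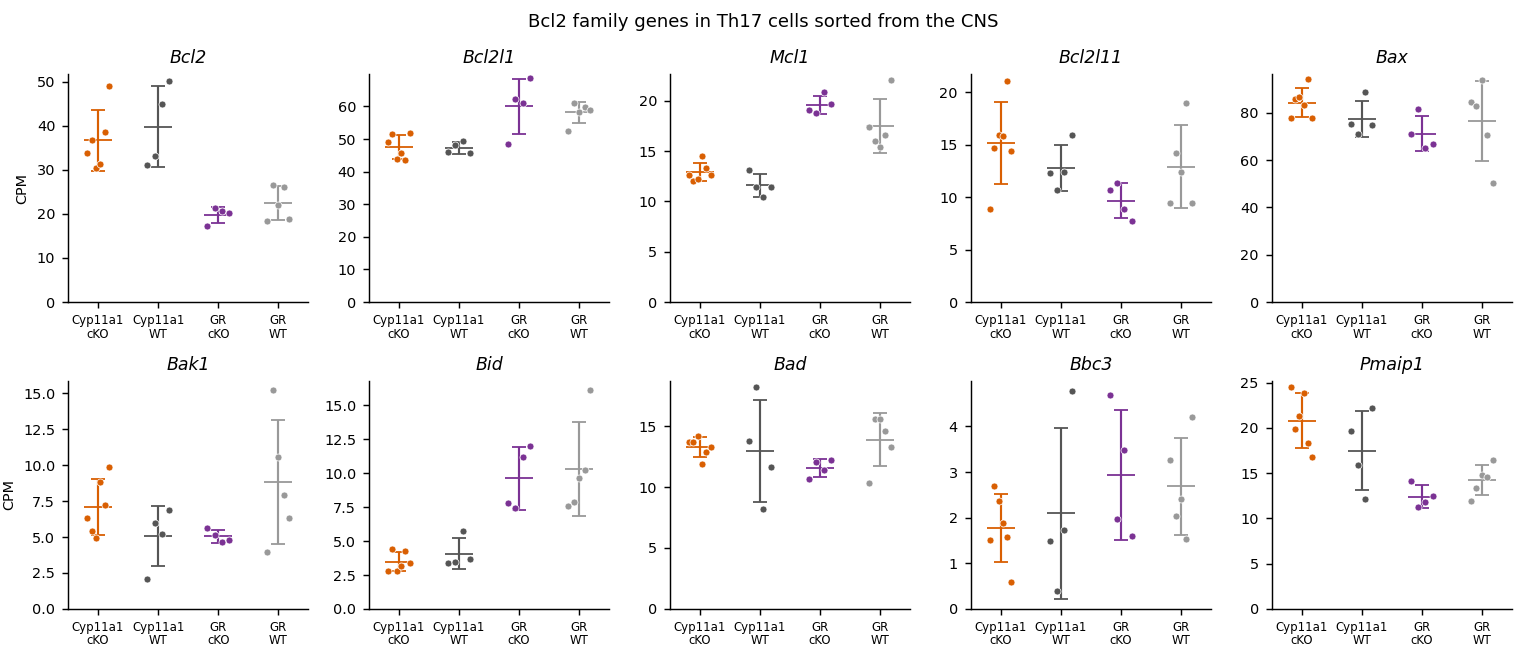
CPM of each member in Th17 cells sorted from the CNS, by genotype; points are libraries, and bars give the mean and SD (n = 6 Cyp11a1 cKO, 4 Cyp11a1 WT, 4 GR cKO and 5 GR WT). The cKO and WT libraries of each gene overlapped in both experiments, which were scaled separately, and each gene has its own scale starting at 0.

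Between GR cKO and GR WT, no member passed the test either. Of 10 tested members, 0 passed in edgeR and 0 in DESeq2, and 1, Bak1, had an unadjusted p under 0.05. Over all genes the share called in edgeR was 0%, with 870 of 10597 at an unadjusted p under 0.05 and 3 called in DESeq2. No member had groups without overlap, against 2.25% of all genes. The median log2 fold change was -0.14 over the members, 7 of them negative, and -0.001 over all genes. Known glucocorticoid-induced genes did not pass either. Tsc22d3 averaged 61.0 ± 13.2 CPM in GR cKO (SD, n = 4) and 67.4 ± 35.5 CPM in GR WT (SD, n = 5). Fkbp5 averaged 11.1 ± 1.11 and 11.2 ± 5.28 CPM, and Sgk1 111 ± 20.3 and 70.5 ± 36.2 CPM, in the same order. How much receptor signalling the GR cKO cells had lost was not tested. All 18 myeloid markers had positive log2 fold changes (median 0.35), none past the test. Markers of NK and CD8 T cells summed to 21.6 to 42.9 CPM in GR cKO and 29.4 to 64.8 CPM in GR WT; all 3 tested had negative log2 fold changes (median -0.93), and none passed. The part of either cell group in the member values was not tested.

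Bak1 read 5.64, 5.11, 4.64 and 4.79 CPM in GR cKO and 3.99, 15.2, 10.6, 7.93 and 6.31 CPM in GR WT. The cKO libraries lay within 1 narrow band, and 4 of the 5 WT libraries lay above it and 1 below. The log2 fold change was -0.82 ± 0.341 (interval -1.57 to -0.07, adjusted p = 0.58 in edgeR). Bcl2l11 read 10.6, 11.4, 8.89 and 7.72 CPM in GR cKO and 9.42, 14.2, 12.4, 18.9 and 9.46 CPM in GR WT. These groups overlapped, and the log2 fold change of -0.41 ± 0.229 had an interval of -0.92 to 0.09 (adjusted p = 0.591 in edgeR). The lowest GR WT values of Bak1 and Bcl2l11 came from libraries 1 and 5, where myeloid markers summed to 20180 and 23320 CPM. In GR WT libraries 2, 3 and 4 that sum was 10280, 5032 and 6512 CPM. Whether the member differences follow myeloid content was not tested.

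Bcl2l1 read 48.5, 62.2, 61.0 and 68.7 CPM in GR cKO and 52.5, 61.2, 58.2, 59.9 and 58.9 CPM in GR WT. Its log2 fold change was 0.05 ± 0.119, with an interval of -0.21 to 0.31. Bcl2 read 17.2, 21.3, 20.7 and 20.2 CPM in GR cKO and 18.5, 26.5, 22.1, 26.1 and 18.9 CPM in GR WT (-0.17 ± 0.148, interval -0.5 to 0.15). Both genes overlapped between genotypes. The lowest GR WT values of Bcl2 also came from libraries 1 and 5, and those of Bcl2l1 from libraries 1 and 3. Mcl1 (0.17 ± 0.133), Bax (-0.11 ± 0.171), Bid (-0.07 ± 0.25), Bad (-0.26 ± 0.155), Pmaip1 (-0.2 ± 0.141) and Bbc3 (0.12 ± 0.385) did not pass. Of these, Bad averaged 11.6 ± 0.721 CPM in GR cKO (SD, n = 4) and 13.9 ± 2.2 CPM in GR WT (SD, n = 5), and Pmaip1 averaged 12.4 ± 1.24 CPM in GR cKO and 14.2 ± 1.69 CPM in GR WT.

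No gene of the 7 pathway lists passed in either CNS comparison in edgeR or DESeq2. Between Cyp11a1 genotypes, 9 of 72 tested list genes outside the members had an unadjusted p under 0.05, against 8.0% of all genes. Between GR genotypes these were 7 of 73, against 8.21%. Among the 9 was Fasl, with 25.9 ± 2.64 CPM in cKO (SD, n = 6) and 19.9 ± 2.22 CPM in WT (SD, n = 4; 0.37 ± 0.117, adjusted p = 0.367 in edgeR). Fas, its receptor, had a log2 fold change of 0.47 ± 0.186 (adjusted p = 0.529 in edgeR). Both were picked after their values were seen. Of the 10 tested death receptor genes, 5 had positive and 5 negative log2 fold changes between Cyp11a1 genotypes (median 0.026).

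In 2 of 5 ratios computed between members, no CNS library overlapped a culture library. How many ratios of other gene pairs separate these libraries was not counted. The separation is therefore not shown to be particular to these genes. Bcl2l11 had 26.3 to 54.7 counts per 100 Bcl2 counts in the 10 Cyp11a1 libraries and 38.2 to 72.5 in the 9 GR libraries, against 0.576 to 3.59 in the 12 culture libraries. Pmaip1 had 117 to 195 counts per 100 Mcl1 counts among the Cyp11a1 libraries, 56.5 to 96.4 among the GR libraries and 10.6 to 41.3 in culture. Bax per Bcl2 count was 1.49 to 2.86 among the Cyp11a1 libraries, 2.65 to 4.57 among the GR libraries and 1.22 to 1.77 in culture, so the Cyp11a1 libraries overlapped the cultures. Bcl2l1 per Bcl2 count overlapped for them too, at 0.91 to 1.48 among the Cyp11a1 libraries, 2.29 to 3.39 among the GR libraries and 0.67 to 1.49 in culture. Pmaip1 per Bcl2l11 count overlapped for both, at 0.871 to 2.76, 0.77 to 1.74 and 1.0 to 9.0 in the same order. A ratio within a library does not depend on its scaling. The experiments differ in Th17 type, tissue, time, sorted population and myeloid marker level, and these cannot be told apart, so no test was made. The ratios are of counts and are not corrected for gene length.

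**Figure D5:**
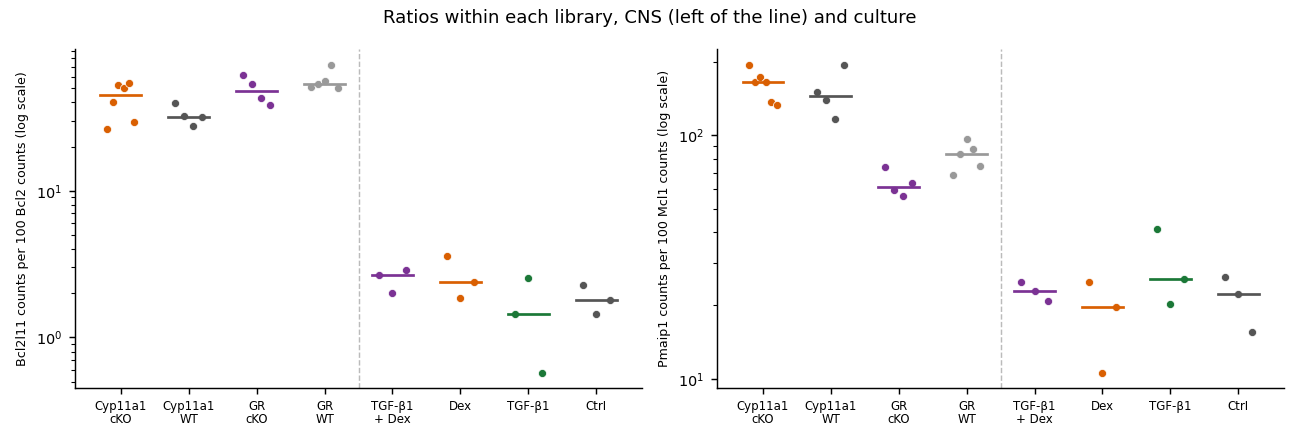
Bcl2l11 counts per 100 Bcl2 counts and Pmaip1 counts per 100 Mcl1 counts in each library, on log axes; points are libraries, bars are group medians, and the dashed line separates CNS libraries from cultures. The culture libraries lay at 0.576 to 3.59 in the first ratio, against 26.3 to 72.5 in the CNS libraries. Only the computed ratios without overlap between CNS and culture are shown.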

How the data were processed

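The 3 tables hold whole-number counts per gene as deposited, with no normalisation, for 31 libraries; 0 columns matched no library. RSEM 1.3.3 and the build mm10 are named in the submitters' processing notes. Per the labels' protocols, polyadenylated RNA of 2000 sorted cells was amplified by a modified SMART-Seq2 protocol and tagged with Nextera XT, which keeps no strand. Such reads carry no molecular identifiers, so detection floors cover counting error only. Repeat-like predicted genes held 9.09% to 54.6% of a library's counts, and an alternative leaves them out.

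Counts were tested in R 4.3.3 with edgeR 4.0.16 (filterByExpr, TMM scaling, robust quasi-likelihood F test, Benjamini-Hochberg adjusted p of 0.05 over all tested genes). The culture groups shared 1 fit and each CNS experiment was fitted alone. Intervals of log2 fold changes are at the 95% level. Alternatives were DESeq2 1.42.0, other scaling and low-count filters, a replicate block, fits of only the groups compared, and fits that left out a library. The tests were checked on simulated data. Over 49 pairs of libraries of a group, chi-square per degree of freedom was 2.96 to 168, so no library repeated another within sampling noise.

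Exon lengths, from the union of exons, and overlaps come from GENCODE M21 basic on GRCm38, and promoters from RefSeq on GRCm38.p6. The members and the 7 pathway lists were chosen with earlier results of these data known. All members are named, with up to 4 genes per list and comparison that passed, by smallest p, and the 3 genes most like a member that passed. Trp53, Foxo1, Cdkn1a, Fas and the CNS values of Fasl were added after their values were seen. Some genes of these lists are not reported here.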

Additional observations from a re-analysis of the deposited data

Results flagged for a closer look

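Bid, a BH3-only gene, read 5.74 CPM in Cyp11a1 WT library 3, against 3.39, 3.49 and 3.71 CPM in the other Cyp11a1 WT libraries. Its gap to the nearest library was 0.863 of the range of the group, above the critical value of 0.829 for 4 libraries. It rests on 33 counts in that library and 14 to 18 in the others. Among 38 sets of 1 gene in 1 group examined in this way, chance flags about 1 in 20.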

How the results depend on the processing

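The count of members that passed was 1 for Dex against Ctrl under every setting except when libraries were left out, where it ranged from 0 to 1. For TGF-β1 + Dex against Dex it was 1, but 0 without the low-count filter, 0 when the compared groups were fitted alone, and 0 to 1 when libraries were left out. The other comparisons kept 0 members in all settings, and no call reversed. Under the 7 settings that keep all libraries, the adjusted p of Bcl2l1 for Dex against Ctrl ran from 0.00247 to 0.0477. Deviations of libraries with the same replicate number correlated between -0.139 and -0.042 for Cyp11a1 and between -0.238 and 0.125 for GR. In culture they correlated between -0.019 and 0.073 (median 0.028), against a median of -0.014 for different numbers. Weak pairing in culture is therefore not settled. Adding the replicate block changed calls over all genes from 189 to 211 for Dex and from 340 to 362 for TGF-β1 against Ctrl. For both agents it changed them from 646 to 650 against Ctrl, 55 to 66 against TGF-β1 and 271 to 280 against Dex. With the replicate block, 1 member passed for Dex against Ctrl and 1 for TGF-β1 + Dex against Dex, as without it, and 0 passed in the other comparisons. Over all genes, the 18 calls for Cyp11a1 cKO became 63 in DESeq2, 33 without the low-count filter and 1 with the replicate block, and the 0 for GR cKO became 3 in DESeq2. The 55 calls of TGF-β1 + Dex against TGF-β1 became 94 in DESeq2 and 22 with the groups alone, and the 0 of the interaction became 6 in DESeq2, 4 without the filter and 2 with the block. Leaving out a library gave 9 to 22 calls for Cyp11a1 cKO, 0 to 1 for GR cKO, 78 to 180 for Dex (189 with all), 219 to 326 for TGF-β1 (340) and 425 to 641 for both agents (646) against Ctrl, and, for both agents, 24 to 57 against TGF-β1 and 152 to 266 against Dex (271). With 1 library left out, the remaining libraries of its group are assumed to vary like the rest. Members at 2 to 17 counts per library, such as Bcl2l11 and Bbc3 in culture, are limited by depth, and small changes were not detectable for them.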
